A study of Mus musculus with 6 samples.

Results

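The genes described here are 10 adhesion and gap junction genes of the pancreatic islet, taken by symbol from a count table of 55536 genes: the connexins Gjd2 and Gja1, the cadherins Cdh1 and Cdh2, the adhesion molecules Ncam1 and Epcam, the ephrin ligand Efna5 and the Eph receptors Epha4, Epha5 and Epha7. All 10 symbols were found, each on 1 row. The counts come from RNA sequencing of whole islets of C57B1/6J mice, asking which genes KLF4, a zinc-finger transcription factor, regulates in alpha cells. The control group (genotype Klf4+/+;Gcg-iCre, 3 libraries) carried intact Klf4 alleles and the knockout group (Klf4fl/fl;Gcg-iCre, 3 libraries) carried floxed ones. Both groups carried Gcg-iCre, a Cre recombinase expressed from the glucagon gene, so deletion was directed to alpha cells while the RNA came from all islet cells. The ages and sexes of the mice were not among the labels, which also do not say whether each library is 1 mouse or a pool. P-values below therefore measure the spread between libraries, which may be in part technical.

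Islet cells touch each other through several kinds of surface protein. Connexins build gap junction channels that pass ions and small molecules between neighbouring cells, and in beta cells, which make insulin, they synchronise electrical activity. Cadherins join cells through calcium-dependent contacts between like molecules and are linked to the actin skeleton by catenins, while NCAM and EPCAM give further contacts that bear on how islet cell types sort from one another. Ephrins and Eph receptors signal in both directions at contact sites, and in islets EphA receptors and ephrin-A ligands are known to modulate insulin and glucagon secretion.

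Promoter sequence was matched for 7 of the 10 genes in RefSeq (GRCm38.p6), and not for Cdh1, Cdh2 and Ncam1. The 250 bases before the start site are shown 5′ to 3′ for the 2 connexins, which are the members whose genotypes did not overlap. They are also shown for Epha4, which had the most CACCC boxes of the 7 matched genes, the type of site that Krüppel-like factors bind. Capitals mark CACCC or its complement GGGTG, and TGAGTCA or TGACTCA, the site of the AP-1 factors. The windows lie at chr2:114013620-114013869 (minus strand), chr10:56377050-56377299 (plus strand) and chr1:77515089-77515338 (minus strand).
Gjd2: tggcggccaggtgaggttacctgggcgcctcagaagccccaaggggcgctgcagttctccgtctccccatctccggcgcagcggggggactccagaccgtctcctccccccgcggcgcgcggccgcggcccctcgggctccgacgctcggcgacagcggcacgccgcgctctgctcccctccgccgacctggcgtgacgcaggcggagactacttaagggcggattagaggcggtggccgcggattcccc
Gja1: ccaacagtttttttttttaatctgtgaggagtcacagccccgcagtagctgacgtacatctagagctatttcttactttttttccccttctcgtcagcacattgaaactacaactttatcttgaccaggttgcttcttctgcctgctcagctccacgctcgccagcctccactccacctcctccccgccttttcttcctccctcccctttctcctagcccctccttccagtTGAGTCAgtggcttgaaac
Epha4: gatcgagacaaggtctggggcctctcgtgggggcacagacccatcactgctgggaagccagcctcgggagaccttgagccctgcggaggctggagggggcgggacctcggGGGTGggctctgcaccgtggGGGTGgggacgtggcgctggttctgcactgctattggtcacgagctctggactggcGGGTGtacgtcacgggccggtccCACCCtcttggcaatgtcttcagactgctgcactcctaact

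The Gjd2 window held neither motif, and the Gja1 window held 1 TGAGTCA and no CACCC. The Epha4 window held 4 CACCC boxes. A CACCC box on either strand was present in 4 of the 7 matched genes (Epcam, Efna5, Epha4 and Epha5) and in 52.0% of 32851 windows of the same length over all genes. The TGAGTCA site was present in 1 of the 7 and in 4.46% of all windows. The TGAGTCA search was added after that site had been seen in the Gja1 window, and the windows shown were chosen after the counts were known. These matches describe letters only, and binding was not measured.

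Library totals ran from 101277200 to 110243918 counts, and the 10 genes together took 0.129% to 0.139% of them. The hormone genes Ins1, Ins2 and Gcg, which define islet tissue, took 20.9% to 23.5%. The targeted gene Klf4 held 2015 to 3148 normalized counts in control libraries and 2277 to 2540.1 in knockout libraries, so the ranges overlapped (DESeq2 adjusted p = 0.774). The log2 fold change was -0.17, and with a library left out it ran from -0.038 without control replicate 1 (adjusted p = 0.964) to -0.34 without control replicate 3 (adjusted p = 0.00568). A count per gene does not separate reads of deleted exons from those of other exons. Xist, the non-coding RNA of the inactive X chromosome, stood at 77938 to 108105 normalized counts in control and 12.4 to 30.2 in knockout libraries, and the Y-linked Ddx3y at 0 in every control library and 5599 to 6265 in the knockout ones. Sex and genotype thus cannot be told apart, and every difference below is one of both. Of the short marker lists, in DESeq2, where 2.19% of all genes passed, 4 of 8 alpha-cell genes fell and 5 of 9 mesenchymal, 3 of 8 duct, 3 of 8 macrophage and 1 of 8 acinar genes rose. For beta cells 1 of 8 genes fell, and none of 6 delta-cell, 8 endothelial or 8 Schwann-cell genes passed the threshold. The edgeR test called 3 of the mesenchymal genes and 0 of the genes in the other 8 marker lists. With a library left out the numbers ran from 5 to 6 for mesenchymal, 1 to 3 for duct, 0 to 4 for alpha-cell and 0 to 4 for macrophage genes. They ran from 0 to 7 for acinar, 0 to 2 for beta-cell, 0 to 1 for delta-cell and 0 to 1 for Schwann-cell genes, and stayed at 0 for endothelial ones. The 6 mesenchymal calls, without control replicate 1, were 5 genes higher and 1 lower in knockout libraries. The 2 beta-cell calls, without control replicate 3, were 1 higher and 1 lower. The single delta-cell and Schwann-cell calls were lower. Without knockout replicate 1 or without knockout replicate 3, 0 genes of the alpha-cell, beta-cell, macrophage and acinar lists passed. With the replicate number as a block, 6 acinar genes rose, 5 alpha-cell genes fell, 0 beta-cell genes passed, and of the macrophage genes 2 rose and 1 fell. No marker was at 0 in any library.

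None of the 10 genes was past the adjusted p threshold of 0.05 in DESeq2, where 2.19% of 17797 genes were (1.53% higher and 0.657% lower in knockout libraries), and none in the edgeR quasi-likelihood test, where 0.115% of 25210 genes were. An unadjusted p under 0.05 was reached by 2 of the 10, Gjd2 and Gja1, in both tools, against 11.5% of all genes in DESeq2 and 9.48% in edgeR. The same 2 genes had groups that did not overlap. Such separation was found in 18.0% of the 15811 genes with a mean of at least 50 normalized counts (9.42% higher and 8.54% lower in knockout libraries), so 2 of 10 is near the background and is no result about these genes as a group. The median log2 fold change was -0.0018 over the 10 genes and -0.0061 over all genes tested.

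**Figure D1:**
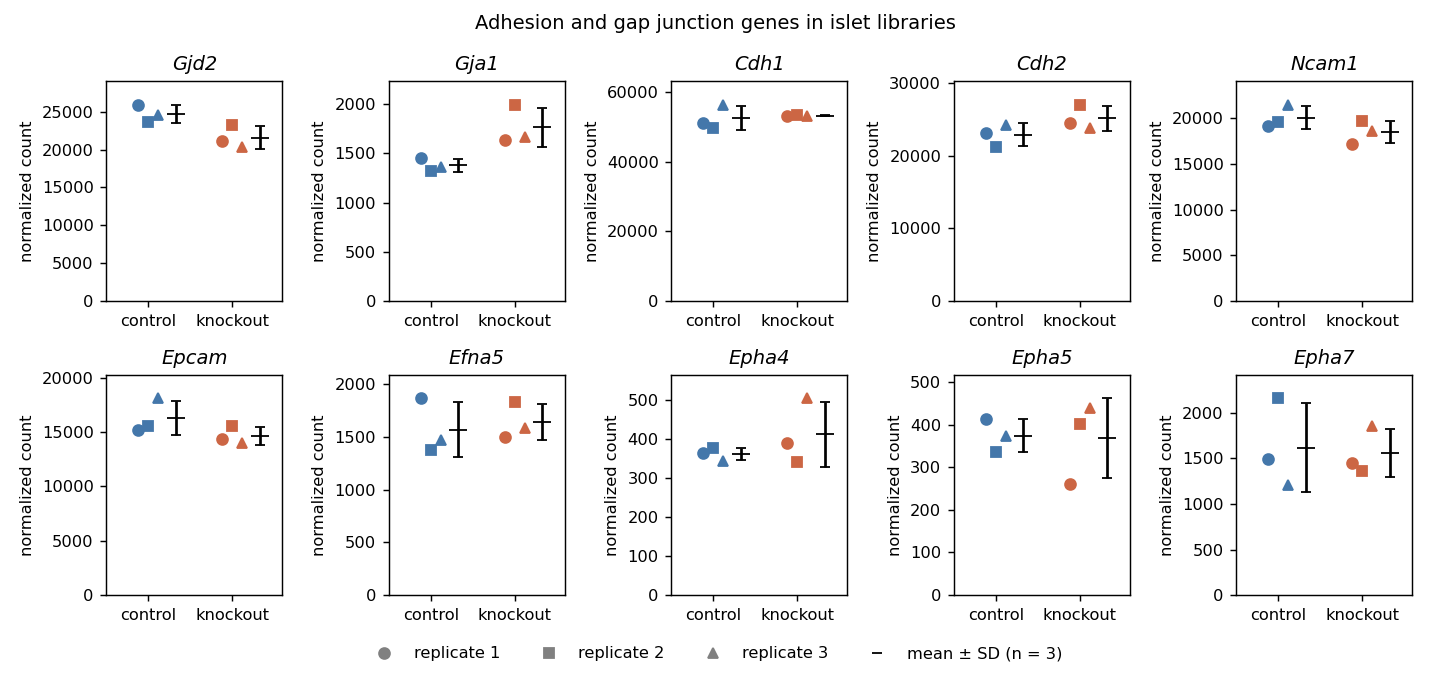
Normalized counts (DESeq2 size factors, vertical axes from 0) of the 10 genes in the 3 control (blue) and 3 knockout (orange) libraries, with marker shapes for the replicate number and bars for mean ± SD. The knockout points lie below every control point for Gjd2 and above every control point for Gja1, and the groups overlap in the other 8 panels.

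Gjd2 encodes connexin 36, the gap junction protein that couples beta cells (ENSMUSG00000068615, GRCm38 chromosome 2, 114009601 to 114013619, minus strand). Normalized counts were 25912, 23611 and 24566 in control replicates 1 to 3, against 21136, 23194 and 20291 in knockout replicates 1 to 3. All 3 knockout libraries were lower than every control, but knockout replicate 2 came close to control replicate 2. The means were 24696 ± 1156 and 21540.5 ± 1493 (SD, n = 3 each), a ratio of 0.872. A log2 fold change of -0.20 ± 0.078 (SE) did not pass (DESeq2 adjusted p = 0.202), and the 95% confidence interval spanned changes of -21.5% to -3.04%. Exons of Gjd2 overlap those of 2 genes named A530058N18Rik on the opposite strand by 18 and 57 bases of 2879, so the origin of reads there is uncertain. Of those 2 genes, 1 held 3.84 to 12.9 and the other 2669 to 3182 normalized counts. In whole-islet RNA, fewer cells of a type and less RNA per cell cannot be told apart.

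Gja1 encodes connexin 43, the widespread gap junction protein of connective tissue, heart and smooth muscle (ENSMUSG00000050953, chromosome 10, 56377330 to 56402513, plus strand). It stood at 1452, 1319 and 1362 normalized counts in the controls and at 1636, 1992 and 1663 in the knockout libraries. Every knockout library was higher than every control, and knockout replicate 2 was the highest. The means were 1378 ± 67.9 and 1764 ± 199 (SD, n = 3 each), 1.28-fold apart. This log2 fold change of 0.36 ± 0.11 (SE) missed the threshold (DESeq2 adjusted p = 0.0575), with a 95% interval from 10.1% to 48.8% higher. It was the only member that any alternative brought past the threshold: with TMM factors in DESeq2, under which 2.29% of genes passed, the adjusted p was 0.0490. Over 12 alternatives the adjusted p ran from 0.0490 to 0.306, the highest from edgeR.

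The summed level of mesenchymal markers was higher in the same libraries as Gja1. The summed normalized counts of the 9 listed genes were 83838 to 96859 in control and 125619.7 to 131116 in knockout libraries. The collagen genes Col1a1, Col1a2 and Col3a1, and Dcn and Pdgfra, rose in DESeq2, while 4 genes did not pass. Of these, Lum and Pdgfrb had log2 fold changes of 0.33 and 0.13. Acta2, the smooth muscle actin, and Rgs5, a gene of pericytes, had the opposite sign, at -0.29 and -0.068. Within the knockout group the order differed, since the mesenchymal sum was highest in replicate 1 and Gja1 was lowest there. The part of mesenchymal cells in the Gja1 difference was not tested.

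The ratio of the 2 connexins within a library does not depend on how libraries are scaled. The Gja1 count was 0.0560, 0.0559 and 0.0554 of the Gjd2 count in control replicates 1 to 3 and 0.0774, 0.0859 and 0.0819 in knockout replicates 1 to 3. The controls were nearly equal, and every knockout library was above them. On the log2 scale the means were -4.16 ± 0.0079 and -3.61 ± 0.075 (SD, n = 3 each), a difference of 0.55, or a 1.46-fold higher ratio. Since every knockout library was above every control for Gja1 and below every control for Gjd2, the ratio had to separate the groups. The exact two-sided permutation test could therefore give only p = 0.1, the smallest that 3 against 3 libraries allows. That p was 0.4 after Benjamini-Hochberg adjustment over 4 such ratios, and it adds nothing to the single-gene values. With each library left out in turn the difference ran from 0.51 to 0.59, its sign being fixed in the same way.

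**Figure D2:**
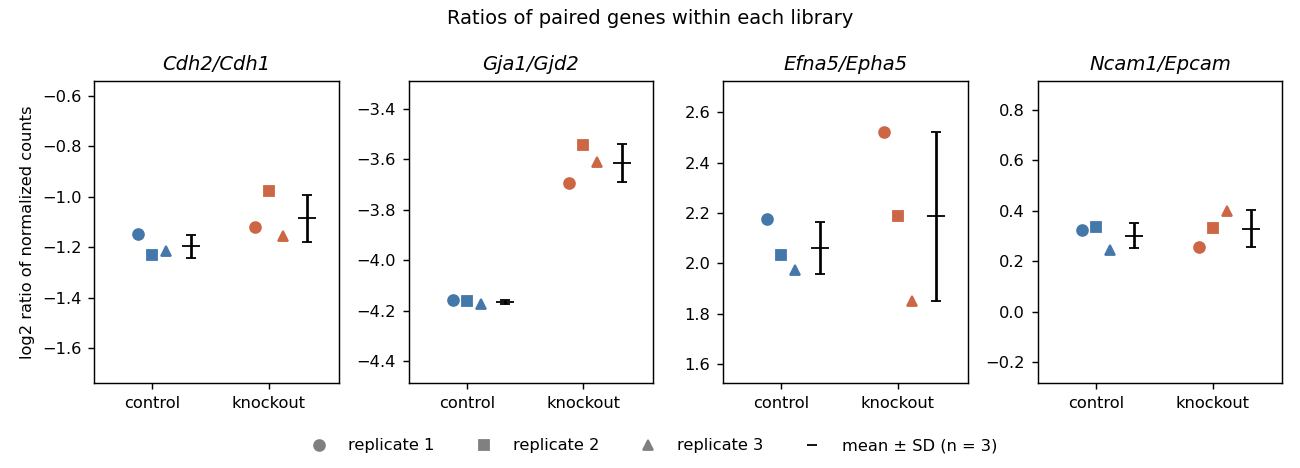
Log2 ratio of normalized counts of 4 gene pairs in each library, on axes of equal span, with mean ± SD (n = 3) beside the points. For Gja1/Gjd2 the controls lie at -4.17 to -4.16 and the knockout libraries at -3.69 to -3.54, whereas the groups overlap for the other 3 pairs.

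Among all 23 connexin and pannexin genes, Gjd2 dominated. Counted per kilobase of exon, it made up 85.8% to 86.9% of the family's summed level in control and 81.6% to 84.1% in knockout libraries, and Gja1 1.34% to 1.37% and 1.77% to 2.02%. By the longest transcript of each gene the Gja1 share was 3.41% to 3.49% in control and 4.49% to 5.11% in knockout libraries. The control and knockout ranges of these shares did not overlap by either length, and they were looked at after the counts were known and were not tested. Of the 23 genes, 11 were given an adjusted p, 1 rose, none fell and 10 did not pass, while 4 had no count in any library. The gene that rose was Gjb1, which encodes connexin 32, a gap junction protein of liver and acinar cells (chromosome X, 101376378 to 101385629). It had 121, 213 and 199 normalized counts in the controls and 603, 340.3 and 236 in the knockout libraries, with replicate 1 far above the others. Its log2 fold change was 1.14 ± 0.33 (SE, DESeq2 adjusted p = 0.0266).

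The Gjb1 call did not survive several changes. The adjusted p was 0.340 in edgeR, 0.0847 with the replicate number as a block and 0.559 without knockout replicate 1, where the log2 fold change was 0.69. It was also lost without control replicate 1 (0.200), control replicate 2 (0.0798) or knockout replicate 2 (0.0968). Gjb2, or connexin 26, the partner of connexin 32 in acinar cells, was at 75.4, 94.1 and 55.2 normalized counts in controls and 302, 105 and 95.8 in knockouts, with the same library highest, and did not pass (adjusted p = 0.167, and 0.990 without knockout replicate 1). The 8 acinar markers summed to 414412 to 814816 normalized counts in control and 1024109.9 to 1456562 in knockout libraries, highest in knockout replicate 2, and 1 of them, Ptf1a, rose in DESeq2, a call lost without any 1 of the 3 knockout libraries. The part of acinar RNA in the Gjb1 difference was not tested.

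Cdh1 encodes E-cadherin, the main cadherin of epithelia (ENSMUSG00000000303, chromosome 8, 106603351 to 106670246, plus strand), and is known outside the islet as a gene that KLF4 can activate. Its values were 51153, 49659 and 56274 normalized counts in controls and 53127, 53219 and 53126 in knockout libraries. The 3 knockout values lay inside the control range. The means were 52362 ± 3469 and 53158 ± 53.5 (SD, n = 3 each), and the log2 fold change was 0.022 ± 0.071 (SE; adjusted p = 0.965 in DESeq2). The 95% interval allowed changes from -7.76% to 11.7%. The knockout coefficient of variation of 0.101% was below the 0.432% that counting alone gives at this depth.

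Cdh2 encodes N-cadherin, the cadherin of neurons and mesenchyme that islet endocrine cells also carry (ENSMUSG00000024304, chromosome 18, 16588877 to 16809246, minus strand). It was at 23118, 21153 and 24265 normalized counts in controls and at 24477, 27008 and 23848 in knockouts. The groups overlapped, although the knockout mean was 1.10-fold the control mean. A log2 fold change of 0.14 ± 0.083 (SE) did not pass (DESeq2 adjusted p = 0.574), and its interval ran from -1.76% to 23.0%. The Cdh2 count was 0.452, 0.426 and 0.431 of the Cdh1 count in controls and 0.461, 0.507 and 0.449 in knockouts, and the groups overlapped (log2 difference 0.11, exact two-sided permutation p = 0.2). Without knockout replicate 2 that difference was 0.060.

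Of 29 cadherin and catenin genes, 22 were given an adjusted p, 1 fell, none rose and 21 did not pass. The gene that fell was Cdh7, a type II cadherin (chromosome 1, 109982431 to 110140157). Controls held 2144, 1733 and 2699.8 normalized counts and knockout libraries 1519, 1328 and 1173, without overlap. Its log2 fold change was -0.71 ± 0.16 (SE, DESeq2 adjusted p = 0.00135). The adjusted p was 0.201 in edgeR and 0.0543 without knockout replicate 3. The 8 listed alpha-cell markers summed to 4116614 to 5922598 normalized counts in control and 3050583 to 3748043 in knockout libraries, nearly all of it Gcg (means 4571598 and 3109157). The list was not lower throughout: 4 genes fell, Irx1 and Fev had log2 fold changes of -0.37 and -0.34 that did not pass, and Gc and Slc7a2 stood at 0.0025 and 0.035. Their part in the Cdh7 difference was not tested. Ctnnb1, or beta-catenin, which ties cadherins to the actin skeleton, had the second highest level of the list per kilobase of exon, after Cdh1, and the highest by the longest transcript. Its log2 fold change was 0.11 ± 0.079 (SE, DESeq2 adjusted p = 0.695). With a library left out it ran from 0.065 without control replicate 1 (adjusted p = 0.831) to 0.18 without control replicate 3 (adjusted p = 0.00801). Exons of Ctnnb1 overlap those of Ulk4 on the opposite strand by 759 of 5192 bases, so the origin of reads there is uncertain.

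Ncam1 encodes the neural cell adhesion molecule, found on endocrine cells, nerves and Schwann cells (ENSMUSG00000039542, chromosome 9, 49502136 to 49798925, minus strand). It had 19064, 19572 and 21435 normalized counts in controls and 17170.4, 19647 and 18523 in knockouts. Knockout replicate 2 lay within the control range and the other two below it. Its log2 fold change was -0.12 ± 0.081 (SE, DESeq2 adjusted p = 0.657), with an interval from -17.5% to 2.90%. Schwann-cell markers summed to 6538 to 7931 normalized counts in control and 5698 to 6984 in knockout libraries, and 0 of 8 passed. The antisense gene Gm11149 overlaps 417 of 8664 exonic bases of Ncam1 but held only 13.9 to 24.9 normalized counts.

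Of 26 adhesion molecules of the immunoglobulin type, 24 were given an adjusted p, 1 rose, none fell and 23 did not pass. The gene that rose was Nfasc, or neurofascin, an adhesion protein of the axon initial segment and nodes of Ranvier (chromosome 1, 132564690 to 132741797). Its values were 17906, 15882 and 18411 normalized counts in controls and 22351, 19772 and 29455 in knockouts. Every knockout library was above the controls, and replicate 3 was well above the rest. The log2 fold change was 0.46 ± 0.13 (SE, DESeq2 adjusted p = 0.0277). Without knockout replicate 3 it was 0.27 with an adjusted p of 0.227. The call was also lost in edgeR (0.334) and without control replicate 1 (0.105), control replicate 2 (0.286), control replicate 3 (0.221) or knockout replicate 1 (0.135).

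Epcam encodes the epithelial cell adhesion molecule, carried by endocrine, duct and acinar cells at different levels (ENSMUSG00000045394, chromosome 17, 87635979 to 87651129, plus strand). It was at 15238, 15529 and 18103 normalized counts in controls and at 14389, 15606 and 14039 in knockouts. Knockout replicate 2 again lay within the control range and the other two below it. The difference, -0.15 ± 0.089 on the log2 scale (SE), did not pass (DESeq2 adjusted p = 0.554), and its interval ran from -20.2% to 1.69%. The ratio of Ncam1 to Epcam counts was 1.25, 1.26 and 1.18 in controls and 1.19, 1.26 and 1.32 in knockouts, with a log2 difference of 0.029 (exact two-sided permutation p = 0.6).

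Of 27 genes listed with Epcam, most of them tight junction genes, 25 were given an adjusted p, 1 rose, none fell and 24 did not pass. The gene that rose was Cldn3, or claudin 3, a sealing protein of epithelial tight junctions (chromosome 5, 134986214 to 134987472). It was at 1633, 1787 and 1904 normalized counts in controls and 2029, 2527 and 2333 in knockouts, without overlap. Its log2 fold change was 0.37 ± 0.11 (SE, DESeq2 adjusted p = 0.0423). The adjusted p was 0.283 in edgeR, 0.0584 without independent filtering, 0.184 without control replicate 1, 0.172 without control replicate 2, 0.261 without knockout replicate 2 and 0.236 without knockout replicate 3. Duct markers summed to 30965 to 35492 normalized counts in control and 40146 to 43144 in knockout libraries, and Krt7, Muc1 and Tff2 of the 8 rose. Their part in the Cldn3 difference was not tested.

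Efna5 encodes ephrin-A5, a ligand held in the membrane by a lipid anchor (ENSMUSG00000048915, chromosome 17, 62604184 to 62881317, minus strand). It was at 1865, 1374 and 1466 normalized counts in controls and at 1502, 1832 and 1584 in knockouts, with full overlap. Its log2 fold change was 0.064 ± 0.14 (SE, DESeq2 adjusted p = 0.946), with an interval from -13.2% to 25.8%. Of 8 ephrin genes, 7 were given an adjusted p and none passed, with 3 at an unadjusted p under 0.05, where 11.5% of all genes were. By level per kilobase Efna5 held the fourth place among them, and Efnb1, the most abundant, differed by -0.054 ± 0.088 on the log2 scale (SE, adjusted p = 0.920), a sign that turned without control replicate 3 (0.013).

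The 3 EphA receptors, tyrosine kinases that bind ephrin-A ligands, were among the less abundant members. Epha4 (ENSMUSG00000026235, chromosome 1, 77367185 to 77515088, minus strand), the receptor through which ephrin-A ligands are known to restrain glucagon secretion, was at 363, 376 and 344 normalized counts in controls. It was at 389, 340.3 and 503 in knockouts, where replicate 3 was above all others and replicate 2 below all. The log2 fold change was 0.19 ± 0.18 (SE, DESeq2 adjusted p = 0.814), with an interval from -11.2% to 45.7%. Without knockout replicate 3 it was 0.014.

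Epha5 (ENSMUSG00000029245, chromosome 5, 84054761 to 84417382, minus strand), a receptor known to restrain insulin secretion in beta cells, was at 413, 336 and 373 normalized counts in controls and at 262, 402 and 439 in knockouts. Knockout replicate 1 was the lowest of the 6 and replicate 3 the highest. The log2 fold change was -0.025 ± 0.21 (SE, DESeq2 adjusted p = 0.988), with an interval from -26.3% to 31.0%. The ratio of Efna5 to Epha5 counts ran from 3.93 to 4.52 in controls and from 3.61 to 5.74 in knockouts, and the log2 difference was 0.13 (exact two-sided permutation p = 0.6).

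Epha7 (ENSMUSG00000028289, chromosome 4, 28813131 to 28967499, plus strand) was the most abundant of the 3 receptors. It was at 1489, 2157 and 1207 normalized counts in controls and at 1448, 1362 and 1853 in knockouts, with overlap. Control replicate 2 was the highest library and control replicate 3 the lowest. The log2 fold change was -0.058 ± 0.19 (SE, DESeq2 adjusted p = 0.966), with an interval from -25.8% to 24.4%. Of 14 Eph receptor genes, 13 were given an adjusted p and none passed, with 3 at an unadjusted p under 0.05 (11.5% of all genes). Ephb4, an endothelial receptor in many tissues, had the highest level of them, and differed by 0.13 ± 0.086 on the log2 scale (SE, adjusted p = 0.634).

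**Figure D3:**
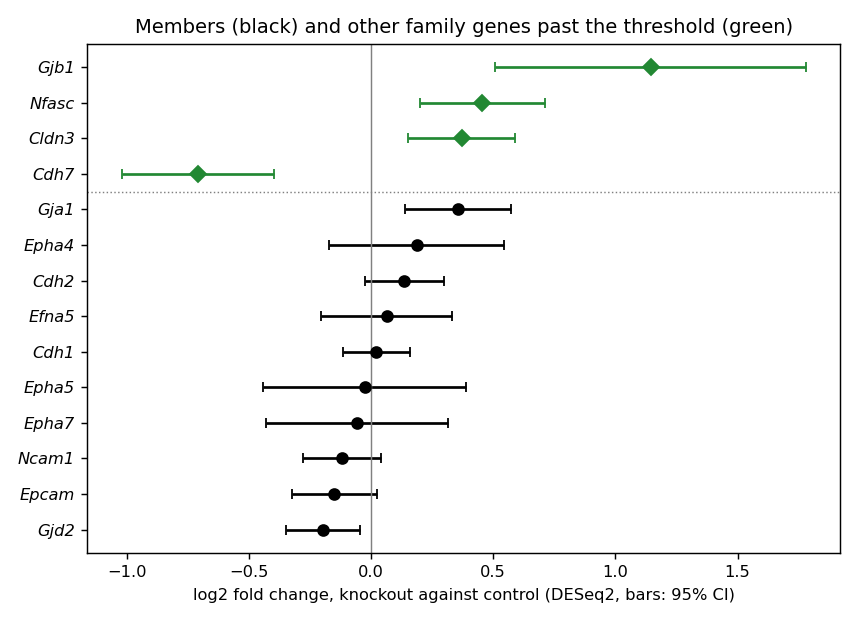
Log2 fold changes of knockout against control libraries from DESeq2 with 95% confidence intervals, for the 10 genes (black circles) and the 4 other genes of their families that passed an adjusted p of 0.05 (green diamonds). The intervals of Gja1 and Gjd2 exclude 0 before adjustment over the genes tested, and those of the other 8 include it.

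In all, 127 genes of the 6 family lists were in the table and 102 were given an adjusted p in DESeq2. Of these, 3 rose (Gjb1, Nfasc and Cldn3), 1 fell (Cdh7) and 98 did not pass, which is 3.92% against the background of 2.19%. The edgeR test gave 116 of the 127 genes an adjusted p and called none. An unadjusted p under 0.05 was reached by 17 of the 116 in edgeR, where 9.48% of all genes reached it. In DESeq2 18 of the 102 did, beside 11.5% of all genes. Groups without overlap were found in 18.2% of the 99 list genes with a mean of at least 50 normalized counts, against 18.0% of all such genes. With single libraries left out, the number past the threshold ran from 1, without control replicate 1, control replicate 2 or knockout replicate 3, to 7, without control replicate 3. It was 2 without knockout replicate 1.

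Levels can be compared between genes only per length. In normalized counts per kilobase of exon, averaged over 6 libraries, Cdh1 was highest at 11535 ± 489 (SD), followed by Gjd2 at 8030.0 ± 730, Epcam at 7054 ± 651, Cdh2 at 2973 ± 237 and Ncam1 at 2220.2 ± 163. Below a 5.58-fold step came Efna5 at 398 ± 49.9, Epha7 at 160 ± 35.6, Gja1 at 153 ± 24.3, Epha4 at 47.9 ± 7.49 and Epha5 at 22.2 ± 3.83. From the top to the bottom of this order the levels differed 521-fold, or 235-fold by the longest transcript. The ranges over the 6 libraries overlapped between Gjd2 and Epcam and between Epha7 and Gja1, and did not overlap between the other neighbours. Within libraries Gjd2 was above Epcam in 6 of 6, or in 5 of 6 by the length of the longest transcript. Epha7 was above Gja1 in 3 of 6 by exon length and in 0 of 6 by the longest transcript, so the order of that pair depends on the length.

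The place of Gja1 in that order depends on the length used, because annotated exons of all isoforms sum to far more than any 1 transcript. By the longest transcript, 3889 in place of 10257 bases, Gja1 stood at 404, above Epha7 at 235 and next to Efna5 at 398. Epha5, at 7328 in place of 16739 bases, stood at 50.6 and remained the lowest, though closer to Epha4 at 61.0. Cdh2 came to 4951 and Ncam1 to 2930.4 by this length, and the means of the first 5 genes kept their order. Within their lists by exon length, Gjd2, Cdh1, Ncam1 and Epcam each had the highest level per kilobase. By the longest transcript Gjd2 and Epcam did, while Cdh1 came after Ctnnb1 (13746) and Ncam1 (2930.4) after Pecam1 (3542).

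**Figure D4:**
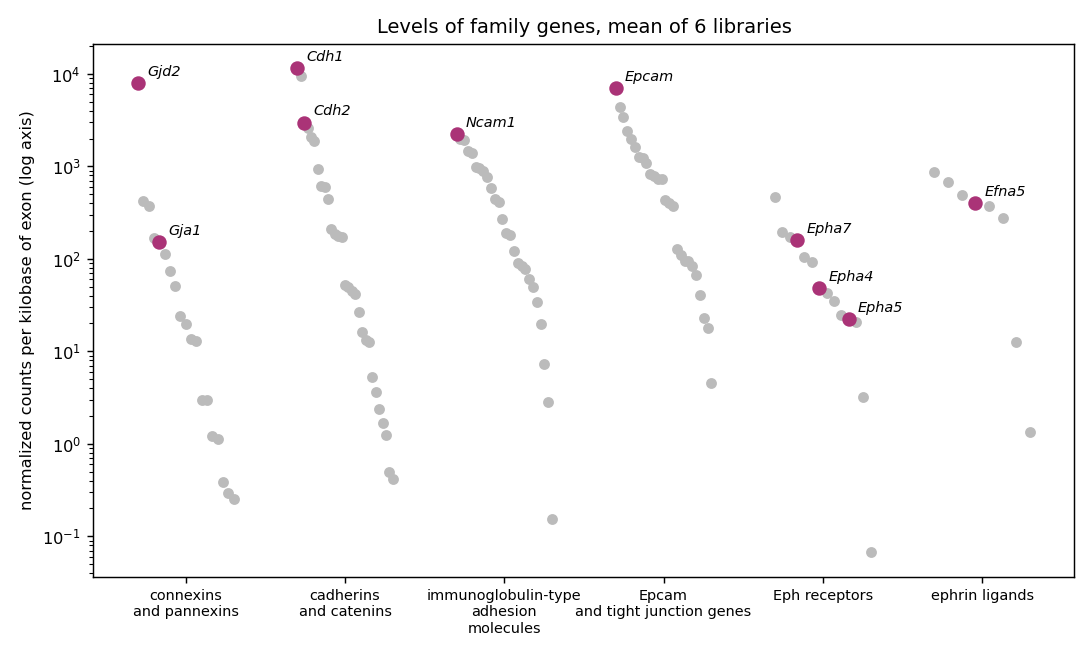
Mean level over 6 libraries in normalized counts per kilobase of exon (log axis) for the genes of 6 family lists, ranked within each list, with the 10 genes described here in purple and labelled. By exon length Gjd2, Cdh1, Ncam1 and Epcam lead their lists, and genes with no count in any library are not drawn.

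Precision differed between the members. Raw counts per library ran from 277 for Epha5 to 56251 for Cdh1. Counting error alone gives a coefficient of variation of 0.438% for Cdh1 and 5.18% for Epha5 in controls, and the observed values between control libraries were 6.63% and 10.2%. Epha7, with a counting error of 2.48%, varied by 30.2% between control libraries, the most of the 10 genes. The standard error of the log2 fold change ran from 0.071 for Cdh1 to 0.21 for Epha5 over the 10 genes.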

How the data were processed

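RNA of 3 control and 3 knockout islet libraries was extracted with a column kit and prepared with an mRNA-seq kit, per the labels' protocols. The deposited values are raw counts of reads per gene in 1 table made by the authors. The submitters' processing notes name FastQC, STAR, featureCounts, DESeq2 and the build mm10, and the name of the deposited table mentions cutadapt; the strand setting is not given in the sources used here, so counts of overlapping genes on opposite strands are uncertain. Each column was assigned to a library by its group and number. Symbols and identifiers of all 55536 rows match GENCODE M21 (GRCm38), which gave coordinates and exon lengths.

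Following the series' design text, DESeq2 1.42.0 in R 4.3.3 was fitted to all genes with at least 10 counts in total. Genotype was its single term, with size factors and the Wald test. Benjamini-Hochberg adjustment, at a threshold of 0.05, covered the 17797 genes left after the independent filtering of DESeq2. Normalized counts are counts divided by size factors. Confidence intervals (95%) are for the DESeq2 log2 fold change. Both fits were tested on simulated data. Ratios used exact permutation of the 6 libraries. Named are the 10 genes, Klf4, and from each of 6 family lists the genes past the threshold, at most 6, and the gene with the highest level per kilobase; Gjb2, Ctnnb1 and markers were named after their values were seen. The genes and lists were chosen with earlier results of these data known. Alternatives were edgeR 4.0.16 with TMM factors, TMM factors in DESeq2, other low-count filters, no independent filtering, the replicate number as a block and each library left out. Libraries of a group differed by 40.0 to 120.2 times what counting gives (chi-square over its degrees of freedom, 15811 genes), so none was deposited more than once.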

Additional observations from a re-analysis of the deposited data

How the results depend on the processing

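No member passed the threshold in DESeq2, in edgeR or in 10 of the other 11 alternatives; with TMM factors in DESeq2, 1 did (Gja1), and with each library left out in turn the number stayed at 0. For the family lists, 4 genes passed, against 0 in edgeR and 1 to 7 with a library left out. TMM moved the median log2 fold change of the 15811 genes with a mean of at least 50 normalized counts from -0.0066 to -0.0040. With the replicate number as a block, 0 members and 3 list genes passed. Gjb1 was lost (DESeq2 adjusted p = 0.0847), and no other call among members, list genes or Klf4 changed. The Gja1/Gjd2 difference of 0.55 had p = 0.25 in an exact sign-flip test, the smallest that 3 pairs allow. That p too was fixed by the single-gene values of Gja1 and Gjd2. Same-numbered libraries did not deviate together over 15811 genes (correlations -0.048, -0.059 and 0.010). With 3 libraries per group this cannot show whether the numbers pair them. Signs of fold changes near 0 turned with a library left out: Cdh1 ran from -0.015 to 0.077, Efna5 from -0.024 to 0.21, Epha5 from -0.17 to 0.17 and Epha7 from -0.23 to 0.21. In the single cases this was -0.022 for Efna5 without knockout replicate 2, 0.050 for Epha5 without control replicate 1 and 0.030 for Epha7 without knockout replicate 2. The log2 differences of Efna5/Epha5 ran from -0.041 to 0.29, of Ncam1/Epcam from -0.0067 to 0.066 and of Cdh2/Cdh1 from 0.060 to 0.15. Without changing sign, and with none past the threshold, the fold changes of Epha4 ran from 0.014 (without knockout replicate 3) to 0.31 (without knockout replicate 2), of Epcam from -0.20 to -0.067 (without control replicate 3), of Ncam1 from -0.16 to -0.066 (without control replicate 3; -0.070 without knockout replicate 1) and of Cdh2 from 0.082 (without knockout replicate 2; 0.084 without control replicate 2) to 0.18. By the longest transcript, levels per kilobase were 4951 for Cdh2, 2930.4 for Ncam1, 235 for Epha7, 404 for Gja1, 61.0 for Epha4 and 50.6 for Epha5; they are higher by construction, since the length is shorter. Of 264 fold changes of single genes under the alternatives, 233 kept direction and side of the threshold, 20 no longer passed, 3 newly passed (Gja1, and without control replicate 3 Klf4 at -0.34 and Ctnnb1 at 0.18, which without control replicate 1 stood at -0.038 and 0.065) and 8 changed sign, among them Efnb1 (-0.097 to 0.013 with a library left out). The cause of none of these was tested. Counting error was highest for Epha4 and Epha5, at 5.27% and 5.18% in controls.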

Other observations

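The highest and lowest library of each genotype differed between members. In the controls, replicate 3 held the highest value of 4 members (Cdh1, Cdh2, Ncam1 and Epcam), replicate 1 that of 4 (Gjd2, Gja1, Efna5 and Epha5) and replicate 2 that of 2 (Epha4 and Epha7), while replicate 2 held the lowest value of 6 members, among them both connexins and both cadherins. In the knockout group, replicate 2 held the highest value of 7 members, all except the 3 Eph receptors, and replicate 3 the highest of Epha4, Epha5 and Epha7, while the lowest value was held by replicate 1 in 4 members, replicate 2 in 2 and replicate 3 in 4. These orders were noticed in the counts, were not tested and were not compared with those of all genes.

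Among the genes of the Eph and ephrin lists that did not pass, Ephb2 had 1409, 1442 and 1453 normalized counts in the controls and 1171, 1179 and 1252 in the knockout libraries, with -0.26 ± 0.092 as log2 fold change (SE; adjusted p = 0.130 in DESeq2). Epha1 was at 322, 288 and 301 in controls and 399, 393 and 454 in knockouts (0.45 ± 0.16, adjusted p = 0.108). Its exons overlap those of Zyx on the opposite strand by 236 of 3928 bases, so the origin of reads there is uncertain. Efnb2, a ligand of EphB receptors, was at 2002, 1954 and 2071 in controls and 1833, 1767 and 1720.4 in knockouts (-0.18 ± 0.084, adjusted p = 0.367). Ephb2, Epha1 and Efnb2 were chosen after their values were seen, for groups that do not overlap. Such separation was found in 18.0% of all genes with a mean of at least 50 normalized counts.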
